A study of Mus musculus with 4 samples.

Results

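The nuclear-encoded genes of oxidative phosphorylation were followed across the cell classes, neuron subtypes and stages of the developing mouse superior colliculus. Members were chosen by symbol alone: subunit genes of complex I (Nduf followed by a, b, c, s or v and a number), complex II (Sdha to Sdhd), complex III (Uqcr), complex IV (Cox4 to Cox8) and ATP synthase (Atp5), with pseudogene symbols left out. The rule found 83 of the 31053 genes in the matrix, of which 36 belonged to complex I, 4 to complex II, 8 to complex III, 18 to complex IV and 17 to ATP synthase, here called complex V.

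The data were single-nucleus RNA counts from C57BL/6J mice, and the labels name no other genotype and no treatment. The 4 stages were embryonic day 19 (E19) and postnatal days 4, 8 and 21 (P4, P8, P21), each represented by 1 library made from pooled tissue of several animals. A stage is therefore the same thing as a library here, and stage and library cannot be told apart. A protocol text abbreviated the embryonic day as E10, whereas the sample title and the stage label gave E19, which was used. The authors' annotation placed the 9724 nuclei in 9 classes and 35 subtypes, and 7552 of them were neurons.

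Oxidative phosphorylation is carried out in the inner mitochondrial membrane. Complexes I and II feed electrons from NADH and succinate into the chain, complex III passes them on to cytochrome c, complex IV hands them to oxygen, and ATP synthase uses the proton gradient to make ATP. Except for complex II, each of these complexes combines subunits encoded in the nucleus with subunits encoded by mitochondrial DNA. In brain, most of the ATP that neurons spend on ion pumping and synaptic transmission is made this way, and demand grows as circuits become active after birth. The counts described here come from nuclei, with intronic reads included, so they reflect RNA in the nucleus and what adheres to it, not the pool of finished cytoplasmic messages.

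The libraries held 2585, 2386, 2504 and 2249 nuclei and 19277512, 23579145, 27436259 and 31325079 unique molecular identifiers (UMIs) from E19 to P21. Members contributed 60957, 55837, 56119 and 63500 of those UMIs. Median depth per nucleus rose with age from 6828 to 11745 UMIs, and 9 of 9715 barcode sequences occurred in more than 1 library. The levels below are UMIs summed over the nuclei of a class and library and expressed per 1000000 UMIs of that sum (CPM). Intervals are exact Poisson intervals at the 95% level and cover counting error only, since no stage had a replicate library and no test between stages could be made. Class markers were in place in most classes: Slc17a6, the glutamate transporter gene of excitatory neurons here, stood at 176 to 286 CPM in excitatory and at 8.32 to 46.3 CPM in inhibitory neurons. The class labelled epithelial was an exception, with Folr1 at 0, as in several other classes, and Ttr, Folr1 and Kl at 0 to 103 CPM in sum. That sum was highest at P4 in every class, at 678 CPM in astrocytes and 445 CPM in the oligodendrocyte lineage. In excitatory neurons it was 3.30, 76.1, 2.20 and 1.30 CPM from E19 to P21. The source of this RNA in the P4 library was not tested. Vascular leptomeningeal cells also held astrocyte markers (1370 to 3183 CPM, beside 1238 to 2853 CPM in astrocytes). The endothelial class held pericyte markers (1152 to 2172 CPM).

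In excitatory neurons the 83 genes together took 2834, 2106, 1786 and 1839 CPM from E19 to P21, with intervals of 2804 to 2865 at E19 and 1817 to 1861 at P21. The E19 library was the highest and most of the difference lay between E19 and P4. The P21 level was 0.649 of the E19 level (0.639 to 0.660). Inhibitory neurons gave 3395, 2520, 2115 and 2204 CPM in the same libraries, and a P21 level that was also 0.649 of E19 (0.637 to 0.661). Member UMIs per nucleus did not follow this share, except for a slight decline in inhibitory neurons up to P8: an excitatory nucleus held on average 24.4, 26.0, 27.2 and 39.4 member UMIs from E19 to P21, and an inhibitory nucleus 22.7, 21.8, 21.5 and 33.7, while total depth rose.

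**Figure D1:**
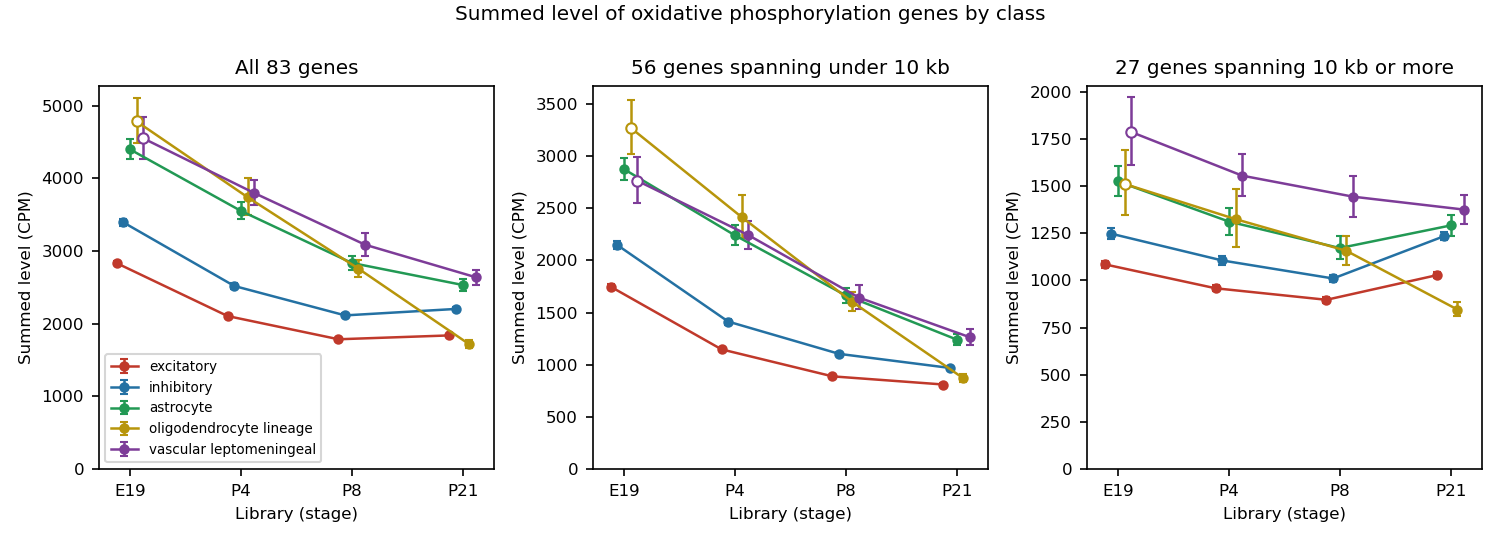
Summed level of the 83 genes (left), of the 56 genes spanning under 10 kb (middle) and of the 27 genes spanning 10 kb or more (right), in CPM on the y axis, for 5 classes in the 4 libraries on the x axis. Bars are exact Poisson intervals for counting error and open circles mark classes with fewer than 50 nuclei; in neurons the short genes were lower in each later library, whereas the long genes were lowest at P8 and at 0.948 (excitatory) and 0.989 (inhibitory) of their E19 level at P21.

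A member was compared between stages by a log2 ratio taken after adding 5 CPM to each of its levels, so ratios of low genes come out too small. Of the 83 members, 65 reached a mean of 10 CPM over the 4 libraries in excitatory and 69 in inhibitory neurons. From E19 to P21, 40 of the 65 were lower by a log2 ratio of 0.5 or more in excitatory neurons, against 23.8% of all 9175 genes compared. Only 2 were higher, against 14.2% of all genes, and the median ratio was -0.66 against -0.07. Among the 9 members with a mean of at least 50 CPM the median was 0.031, with 4 lower and 1 higher, and the share of all genes at that filter was not computed. In inhibitory neurons 42 of 69 were lower, against 24.4% of 9298 genes, and 2 were higher, against 15.8%, with a median of -0.73 against -0.06. The other members fell inside these limits.

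Of the 3 steps, that from E19 to P4 held the most lower members in both neuron classes, though calls per step do not add up to those from E19 to P21. In excitatory neurons 27 of 65 members were lower across that step (5.11% of all genes) and none was higher (3.35%). From P4 to P8 the counts were 5 lower (5.85%) and 1 higher (2.5%), and from P8 to P21 they were 5 lower (13%) and 2 higher (8.95%). Inhibitory neurons had 23 lower (5.55%) and 1 higher (4.37%) of 69 from E19 to P4, then 6 lower (4.67%) and none higher (1.26%), then 11 lower (13.6%) and 5 higher (10.4%). The first step was thus the only one in excitatory neurons at which the share of lower members, 41.5%, stood well above that of all genes. With P4 in place of E19 as the starting stage, 17 excitatory and 24 inhibitory members were lower at P21, where all genes gave 20.5% in each class.

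The complexes differed in size of decline and in the span of their genes. Sdha, Sdhb and Sdhc of complex II spanned 28.03, 17.99 and 23.44 kb, whereas most complex IV genes compared spanned under 10 kb. The part of span in the differences between complexes was not tested. In excitatory neurons complex IV went from 587 CPM at E19 to 382, 316 and 288, so that P21 stood at 0.490 of E19 (0.472 to 0.510). Complex V went from 822 to 621, 483 and 459 CPM (0.558 of E19), and complex III from 285 to 222, 196 and 189 CPM (0.663). Complex I was at 954, 707, 630 and 731 CPM, lowest at P8 and higher again at P21 (0.766 of E19). Complex II, at 185, 175, 161 and 173 CPM, differed least (0.933, interval 0.881 to 0.989). Inhibitory neurons followed the same order, with 0.455 for complex IV, 0.578 for complex V, 0.682 for complex III, 0.763 for complex I and 0.985 (0.918 to 1.06) for complex II. Sums are weighted by the most abundant genes. In counts of members in excitatory neurons the same order began with 9 of 11 lower for complex IV and 13 of 16 for complex V. It ended with 1 of 4 for complex II, where 23.8% of all genes compared were lower.

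**Figure D2:**
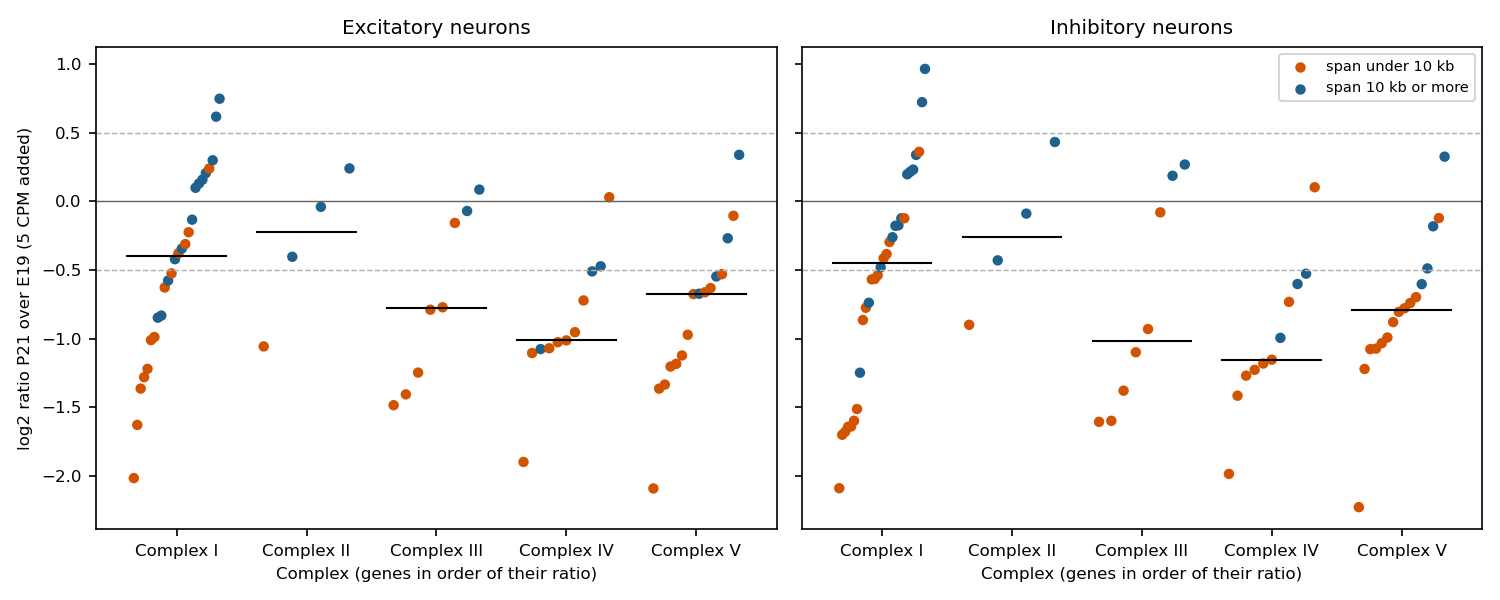
Log2 ratio of P21 over E19 for each member that reached a mean of 10 CPM, grouped by complex, in excitatory (left) and inhibitory neurons (right); black bars are medians over the members shown and dashed lines mark ratios of 0.5 in either direction. Points above the upper dashed line are Ndufv2 and Ndufs1 in both classes, and nearly all points of complex IV lie below 0.

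Within complex I, the members with the largest ratios in either direction sat side by side. Ndufv2, an iron-sulphur subunit of the module that oxidises NADH (chr17:66078638-66101559 on GRCm38), had 34.0, 39.3, 38.1 and 60.5 CPM in excitatory neurons from E19 to P21. It was at a similar level in the first 3 libraries and higher at P21, 1.78 times its E19 level (1.58 to 2.01). In inhibitory neurons it had 34.6, 40.2, 38 and 72.3 CPM. Ndufs1, the large iron-sulphur subunit of the same module (chr1:63143596-63176833), was higher in each later library of both classes, at 61.9, 71.5, 77.4 and 97.7 CPM in excitatory and 71.6, 74.7, 81.8 and 122 CPM in inhibitory neurons. Ndufs1 overlaps Ino80dos and Eef1b2 on the opposite strand, and without members that overlap another gene Ndufv2 was the 1 higher member in each class. Ndufs4, an accessory subunit whose loss in mice is a model of Leigh syndrome, spans 100.46 kb and was at 101, 81.6, 84.5 and 126 CPM in excitatory neurons, lower at P4 and P8 than at either end. Ndufs5, an accessory subunit, and Cox7b were the members under 10 kb whose compared value at P21 was above that at E19 in neurons. Ndufs5 was at 14.1, 12.6, 13.7 and 17.6 CPM (log2 ratio 0.24). Ndufv1, which binds the flavin of the NADH module, went the other way, at 23.8, 19.6, 16.7 and 15.0 CPM.

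At the low end stood Ndufa4, a small subunit named for complex I, and counted there by its symbol, but since assigned to complex IV. Ndufa4 (chr6:11900292-11907497) had 82.3, 34.7, 24.6 and 16.6 CPM in excitatory neurons and 111, 44.0, 35.3 and 22.2 CPM in inhibitory neurons. Every step was downward and the P21 level was 0.201 (0.174 to 0.232) and 0.200 (0.172 to 0.232) of that at E19. Ndufb11, Ndufb7 and Ndufb9, accessory subunits of the membrane arm, were also among the 5 lowest ratios of a neuron class, with log2 ratios of -1.63, -1.22 and -1.36 in excitatory and -1.64, -1.70 and -1.68 in inhibitory neurons. Ndufb11 overlaps Rbm10 on the opposite strand and Ndufb9 overlaps Gm49356 on the same strand, so UMIs could be shared there.

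Complex II and complex III each held genes that hardly differed beside genes that were lower. Sdha, the flavoprotein subunit that oxidises succinate, had 71.7, 71.0, 73.2 and 85.6 CPM in excitatory and 75.5, 85.6, 87.2 and 104 CPM in inhibitory neurons, where it was higher in each later library. Sdhb, the iron-sulphur subunit, had 48.8, 52.8, 46.6 and 47.4 CPM in excitatory neurons, with P21 at 0.970 of E19 (0.867 to 1.09). Sdhd, a membrane anchor, was the complex II member past the limit, at 19.1, 11.3, 8.57 and 6.57 CPM. In complex III, the core protein genes Uqcrc1 (42.5, 41.8, 41.2 and 40.3 CPM) and Uqcrc2 (51.4, 51.4, 57.9 and 54.9 CPM) were nearly level in excitatory neurons. The Rieske iron-sulphur protein gene Uqcrfs1 was lower in each later library, at 23.8, 14.2, 9.17 and 5.27 CPM (log2 ratio -1.49).

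Cox8a, a small subunit of complex IV, was the member with the highest level per kilobase of exon in neurons, at 138 CPM per kb. Cox8a (chr19:7215153-7217616) had 141, 76.6, 56.5 and 34.1 CPM in excitatory and 182, 98.5, 79.0 and 42.3 CPM in inhibitory neurons. Its libraries formed a descending series with intervals that did not overlap, and P21 stood at 0.242 (0.219 to 0.268) and 0.232 (0.208 to 0.259) of E19. Cox5a, a nuclear core-associated subunit, was less affected, at 59.2, 38.1, 32.4 and 41.3 CPM in excitatory neurons. Cox7b was level, at 56.5, 52.6, 52.0 and 57.8 CPM (log2 ratio 0.03).

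In ATP synthase, Atp5e, the small epsilon subunit of the central stalk (chr2:174461072-174464105), had the lowest ratio of all members. It had 46.4, 26.7, 15.2 and 7.05 CPM in excitatory and 62.4, 32.9, 21.8 and 9.38 CPM in inhibitory neurons, with log2 ratios of -2.09 and -2.23. Atp5b, the catalytic beta subunit (chr10:128083273-128090391), had 133, 98.9, 67.0 and 55.8 CPM in excitatory neurons, and Atp5a1, the alpha subunit, 95.6, 81.3, 56.8 and 60.0 CPM. Atp5c1, the gamma subunit of the same rotor as Atp5e, had 42.2, 40.9, 39.6 and 54.8 CPM, so the gamma and epsilon subunits of the central stalk differed in opposite directions. By CPM the 3 most abundant members in neurons were Ndufs4, Atp5b and Cox8a, with mean levels of 104, 96.1 and 85.6 CPM, but per kb of exon they held 38.4, 22.7 and 138 CPM.

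**Figure D3:**
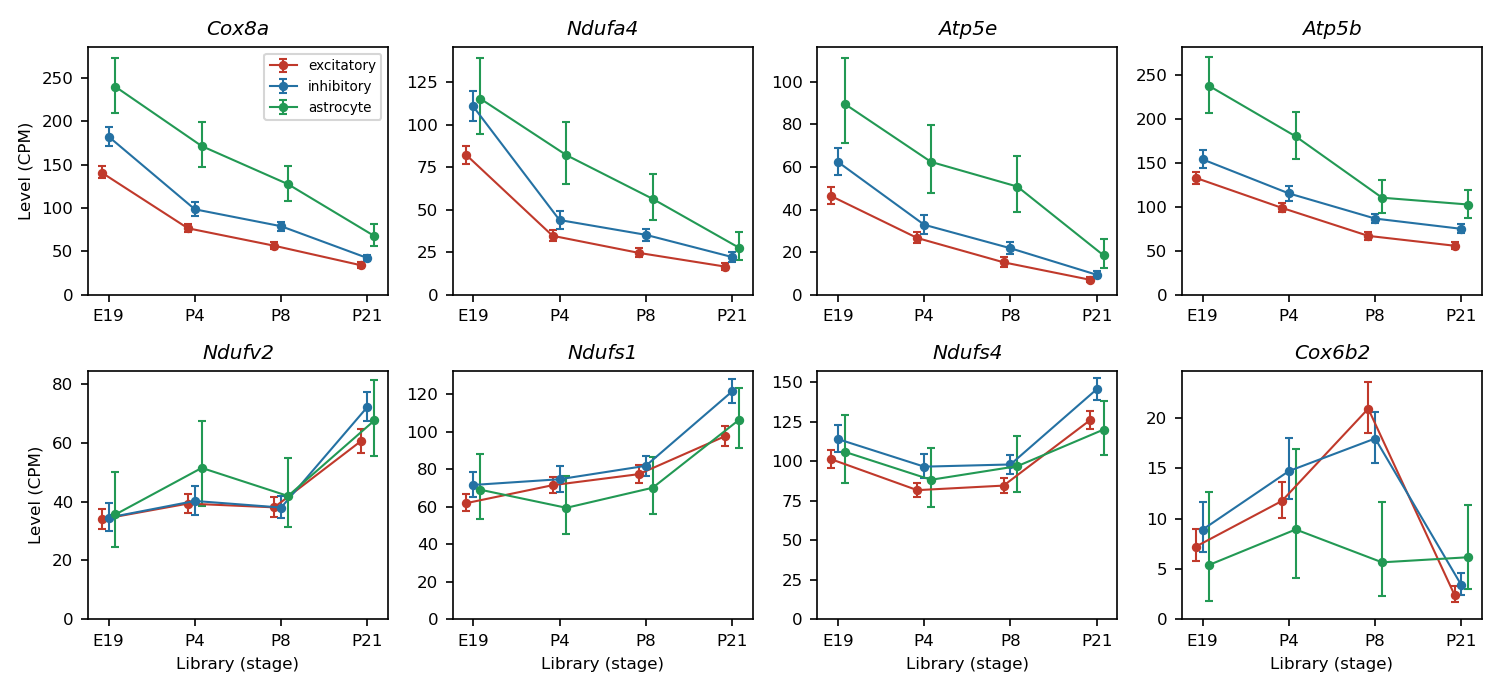
Level in CPM (y axis) of 8 members in excitatory neurons, inhibitory neurons and astrocytes in the 4 libraries (x axis), with exact Poisson intervals for counting error. Cox8a, Ndufa4, Atp5e and Atp5b were lower at P21 than at E19 in the 3 classes, Ndufv2 and Ndufs1 were higher, and Cox6b2 was highest at P8 in neurons.

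Members that were lower and members that were not differed in the length of the gene. Of the 83 members, 56 spanned under 10 kb in the GENCODE M21 annotation of GRCm38, 24 spanned 10 to 50 kb and 3 spanned more. In excitatory neurons the short members went from 1749 CPM at E19 to 1148, 889 and 811, while the 27 members of 10 kb or more were at 1086, 958, 897 and 1029 CPM. The short group was lower in each later library, and the long group was lowest at P8 and stood at 0.948 of its E19 level (0.925 to 0.970) at P21. Inhibitory neurons gave 2148, 1414, 1104 and 969 CPM for the short and 1248, 1106, 1010 and 1235 CPM for the long members.

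Of 40 short members compared in excitatory neurons, 33 were lower from E19 to P21 and 0 were higher, with a median log2 ratio of -1.01. Short genes in general shared part of this: 54.5% of the 1201 genes under 10 kb were lower, with a median of -0.60. Of 25 longer members 7 were lower and 2 higher, with a median of -0.13, against 19.1% and 15.4% of all genes of 10 kb or more and a median of -0.02. The 7 include Atp5o (log2 ratio -0.55), whose annotated span of 242.58 kb overlaps the 6.47 kb member Atp5o.1 on the same strand. In inhibitory neurons 36 of 44 short members were lower (57.0% of all short genes) and 6 of 25 longer ones (19.2%). Spearman's rho between span and ratio was 0.65 over the 65 members in excitatory and 0.63 over the 69 in inhibitory neurons, against 0.29 and 0.31 over all genes. These are descriptions across genes of the same libraries, and genes are not independent replicates.

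**Figure D4:**
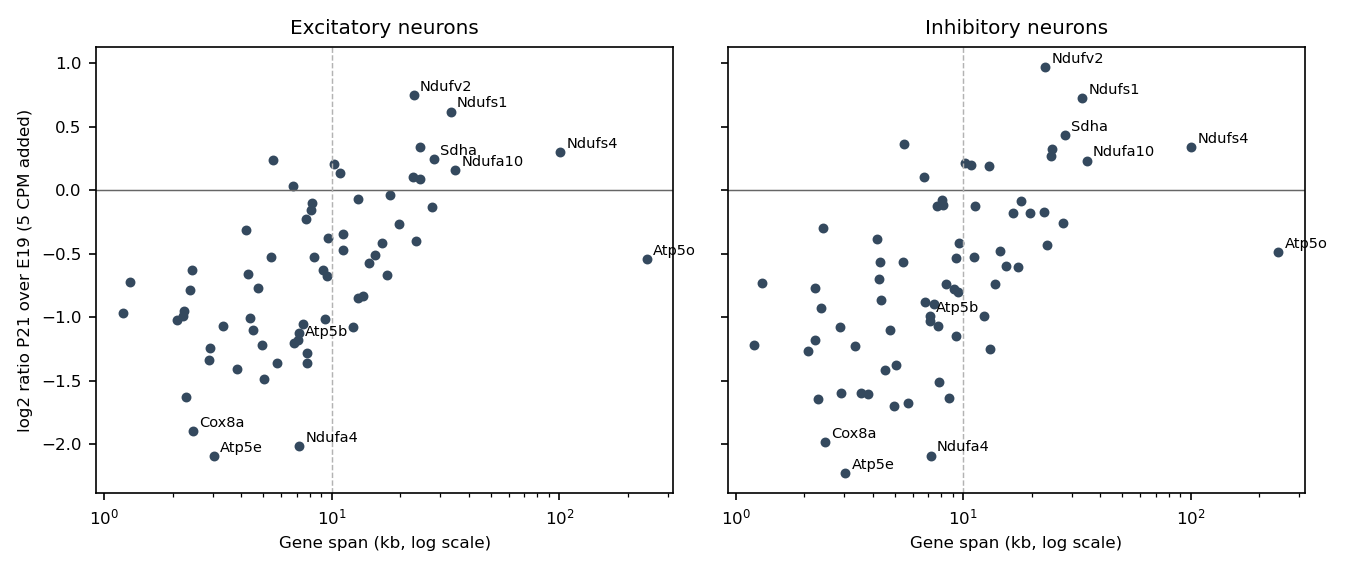
Log2 ratio of P21 over E19 (y axis) against gene span in kb on a log scale (x axis) for the members that reached a mean of 10 CPM in excitatory (left) and inhibitory neurons (right); the dashed line marks 10 kb. The lowest ratios belong to genes left of the line and the members above a ratio of 0.5 lie right of it. The span of Atp5o, at the far right, includes other annotated genes. Among them is Atp5o.1, a 6.47 kb entry on the same strand that is also a member but did not reach 10 CPM.

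Several other measures moved with the short members. The 83 cytosolic ribosomal protein genes, also short and abundant in cytoplasm, stood at 3596, 2152, 1361 and 708 CPM in excitatory and 4525, 2716, 1771 and 775 CPM in inhibitory neurons. A list of 10 genes of abundant cytoplasmic RNA, such as Tmsb10 and Tmsb4x, was lower for 10 of 10 genes in each neuron class, with median log2 ratios of -2.92 and -2.93. Over all genes compared the shares were 23.8% in excitatory and 24.4% in inhibitory neurons. Of the 10 listed genes 8 spanned under 10 kb, a group with the larger shares given above. The list was chosen with earlier results of these data known. Mitochondrially encoded genes, whose RNA is not made in the nucleus, took 5135, 7416, 2232 and 1719 CPM in excitatory neurons, highest at P4. The part of cytoplasmic RNA in the members' decline was not tested. Among excitatory nuclei with above 0.25 to 1% of UMIs from mitochondrially encoded genes, the short members were at 1742, 1082, 1053 and 881 CPM and the long members at 1081, 939, 939 and 1087 CPM. Depth also differed: in each library the quartile of excitatory nuclei with the fewest UMIs had the highest member level, from 3534 CPM in the lowest to 2419 in the highest quartile at E19 and from 1963 to 1766 at P21.

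Promoters are shown for Ndufv2, Ndufs4 and Sdha, picked after their values were seen from among several members that were higher at P21 (Atp5c1 and Ndufs5 were others), and for the 3 lowest ratios in excitatory neurons (Cox8a, Ndufa4, Atp5e), so that the sequences upstream of genes with opposite ratios can be read side by side. Each is the 120 bases before the annotated start from RefSeq on GRCm38.p6, written 5′ to 3′ on the gene's own minus strand, with matches to 4 motifs in capitals. The intervals are chr17:66101560-66101679, chr13:114388095-114388214, chr13:74350241-74350360, chr19:7217617-7217736, chr6:11907451-11907570 and chr2:174464102-174464221, in the order printed.
Ndufv2: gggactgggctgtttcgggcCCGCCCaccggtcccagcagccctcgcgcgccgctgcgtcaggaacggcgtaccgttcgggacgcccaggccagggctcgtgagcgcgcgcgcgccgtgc
Ndufs4: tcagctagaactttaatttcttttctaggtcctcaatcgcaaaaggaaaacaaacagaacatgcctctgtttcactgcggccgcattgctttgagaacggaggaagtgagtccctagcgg
Sdha: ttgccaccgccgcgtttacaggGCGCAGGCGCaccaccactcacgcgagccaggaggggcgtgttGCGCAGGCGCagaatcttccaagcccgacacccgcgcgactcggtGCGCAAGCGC
Cox8a: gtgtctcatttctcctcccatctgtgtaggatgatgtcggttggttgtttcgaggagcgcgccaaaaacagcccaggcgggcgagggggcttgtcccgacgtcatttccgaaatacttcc
Ndufa4: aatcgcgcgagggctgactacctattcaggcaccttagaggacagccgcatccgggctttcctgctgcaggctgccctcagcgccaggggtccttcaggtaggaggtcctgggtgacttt
Atp5e: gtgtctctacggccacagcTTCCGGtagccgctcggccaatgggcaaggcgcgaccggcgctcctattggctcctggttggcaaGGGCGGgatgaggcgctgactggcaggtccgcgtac

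The motifs were those of NRF1 (GCGCA, any base, GCGC), ETS factors including GABP (CCGGAA), YY1 (AANATGGC) and SP1 (GGGCGG), searched on both strands in the 300 bases around the start; NRF1, GABP and YY1 are known regulators of mitochondrial genes. In the printed windows Sdha held 3 NRF1 matches, Ndufv2 held 1 SP1 match and Atp5e held 1 ETS and 1 SP1 match. Of the 68 members with a promoter in the table, 17 held the NRF1 motif (25.0%, against 5.19% of 27025 genes), 25 the ETS motif (36.8% against 16.7%), 17 the YY1 motif (25.0% against 6.96%) and 28 the SP1 motif (41.2% against 38.2%). Among members lower in excitatory neurons and the other members compared, NRF1 was held by 9 of 34 and 5 of 21, ETS by 15 of 34 and 8 of 21, YY1 by 8 of 34 and 4 of 21, and SP1 by 11 of 34 and 9 of 21. These differences were not tested. A match describes letters in the window and is not a bound site.

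Some complex IV subunits exist as pairs of genes, a general form and a form known from muscle, testis or lung. The general forms predominated in neurons. Cox6a1 had 68.8, 42.0, 31.5 and 30.1 CPM in excitatory neurons, whereas its muscle counterpart Cox6a2 had 2, 8, 4 and 0 UMIs there. Cox7a2 had 45.5, 25.6, 18.4 and 18.5 CPM, and its muscle counterpart Cox7a1 had 1, 6, 1 and 5 UMIs. Cox8b and Cox8c were at 0 UMIs in every class and library, next to the high counts of Cox8a.

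Cox6b2, described as a testis form of Cox6b1, stayed below Cox6b1 in neurons but followed a course of its own. Cox6b2 had 7.20, 11.7, 20.9 and 2.40 CPM in excitatory and 8.89, 14.7, 18.0 and 3.36 CPM in inhibitory neurons, resting on 83, 175, 276 and 35 and on 53, 94, 199 and 38 UMIs. It was higher in each library up to P8 and lowest at P21 in both classes, with a log2 ratio from P8 to P21 of -1.81 and -1.46, the largest of any member compared at that step. Cox6b1 was at 48.5, 29.1, 23.5 and 21.5 CPM in excitatory neurons. Among neuron subtypes at P8, Cox6b2 ranged from 5.03 CPM in EN12 (5 UMIs) to 39.7 CPM in IN7 (36 UMIs). Vascular leptomeningeal cells held it at 31.8, 22.3, 24.9 and 26.2 CPM (7, 11, 12 and 24 UMIs), without a drop at P21. Cox7b2, below the limit for comparison, had 2.34, 3.16, 5.0 and 6.02 CPM in excitatory neurons on 27, 47, 66 and 88 UMIs.

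Cox4i2, the form of subunit 4 known from lung and oxygen-sensing cells, had 3, 9, 5 and 1 UMIs in the 13, 22, 15 and 12 nuclei of the endothelial class, or 27, 39.3, 25.8 and 13.6 CPM. Excitatory neurons had 0.173 to 0.685 CPM. The endothelial class also held the pericyte markers Rgs5, Kcnj8 and Pdgfrb at 1152 to 2172 CPM in sum, and which of its cells carried Cox4i2 was not tested. Its general counterpart Cox4i1 was listed at 0 in all nuclei, as were Emc8 next to it and Ndufa13 elsewhere. Cox4i1 lies within Gm20388 on the same strand, which held 33440 UMIs, and Ndufa13 overlaps Yjefn3, which held 556. Both are subunits that respiring cells use, so their zeros are reported as listed values and not as absence.

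The glial and vascular classes started higher than neurons and declined too. Astrocytes had 4400, 3553, 2837 and 2533 CPM for the 83 genes, 0.576 of E19 at P21 (0.551 to 0.601). From E19 to P21, 47 of 72 members were lower in astrocytes, against 35.9% of all 10089 genes, and 2 were higher, against 15.4%. The members with the largest ratios were partly those of neurons: Ndufa1, an essential accessory subunit of complex I, went from 36.7 to 3.08 CPM on 34 and 5 UMIs, Atp5e from 89.6 to 18.5 CPM and Ndufa4 from 116 to 27.7 CPM. Ndufv2 had 35.6, 51.5, 41.9 and 67.7 CPM and Ndufs1 69.1, 59.4, 70.1 and 106 CPM. Unlike in neurons, member UMIs per astrocyte nucleus did not rise, at 20.8, 16.1, 15.1 and 14.4.

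The oligodendrocyte lineage had 4784 CPM at E19 from 47 nuclei, then 3742, 2758 and 1716 CPM. From P4 to P21, 50 of 70 members were lower, against 41.5% of 9580 genes, and 2 were higher, against 21%. Atp5g1, which encodes the c subunit of the ATP synthase ring, was at 123 CPM at P4 and 10.2 CPM at P21, on 28 and 24 UMIs. Uqcrb and Ndufa11 had log2 ratios of -2.18 and -1.93, while those of Cox7c, Atp5s and Ndufa9, at 1.00, 0.70 and 0.48, rested on 2, 2 and 3 UMIs at P4. The class held different cells at these stages: precursors made up 42 of 54 nuclei at P4 and 109 of 143 at P8, but 64 of 306 at P21, beside 187 myelinating and 55 committed oligodendrocytes. Within precursors alone, 32 of 69 members were lower from P8 to P21, against 21.2% of 9358 genes, and the level went from 2835 to 2050 CPM (0.723, interval 0.657 to 0.795).

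Vascular leptomeningeal cells had 3799, 3087 and 2639 CPM from P4 to P21, and 46 of 71 members were lower, against 29.7% of 9896 genes, and 1 higher, against 12.2%. With 20 CPM added 29 were lower, and with median-of-ratios scaling 30. The share of all genes was not computed under either alternative, so these counts cannot be set against the 29.7%. The 1 higher member was Ndufs4, at 122, 121 and 199 CPM on 60, 58 and 183 UMIs. Ndufs6 (28.4 to 4.36 CPM), Ndufc1 (36.6 to 7.63 CPM) and Atp5e (56.9 to 15.3 CPM) had the lowest ratios. This class also carried astrocyte markers at 3183, 2707, 2890 and 1370 CPM from E19 to P21, where astrocytes held 1332, 1238, 1923 and 2853 CPM. The list therefore did not tell this class from astrocytes. The part of RNA from astrocytes in the member levels was not tested. Microglia (13 to 33 nuclei a library) had 5272, 3996, 3661 and 2836 CPM, and no ratios were taken from so few nuclei.

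Within a library, members were higher in inhibitory than in excitatory neurons by a small amount. Of 67 members compared, 59 were higher in all 4 libraries, where 31.6% of all 9289 genes were, and 1, Atp5s, was lower in all 4, where 15.2% were. None was higher (1.08% of all genes) or lower (1.49%) by a log2 ratio of 0.5 or more in all 4 libraries. The median ratios were 0.21, 0.25, 0.20 and 0.19 from E19 to P21, against 0.04, 0.05, 0.05 and 0.06 for all genes. The largest mean ratios belonged to Atp5g3 (0.38), a gene of the c ring, Ndufa4 (0.37) and Cox8a (0.36). Inhibitory nuclei also held more ribosomal protein RNA in each library, and more mitochondrially encoded RNA, from 6770 against 5135 CPM at E19 to 2149 against 1719 CPM at P21. They were shallower as well, by the median UMIs of each quartile in each library. The inhibitory quartile with the most UMIs (medians 10198, 13470, 14810.5 and 22334) had 2756, 2130, 1877 and 2072 CPM from E19 to P21. The excitatory quartile nearest to it in depth (medians 9017, 13213, 16036.5 and 22090.5) had 2815, 2037, 1747 and 1842 CPM. The part of depth or of either kind of RNA in the difference was not tested.

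Of 69 members, 51 were higher in astrocytes than in neurons in all 4 libraries (39.9% of 10012 genes), and 1 was lower in all 4 (24.5%). By a log2 ratio of 0.5 or more in each library 12 were higher, a share close to the 16.4% of all genes. Astrocyte nuclei were shallower, and member level ran with depth within each class. At P21 the quartile of astrocytes with the most UMIs (median 7614) had 2357 CPM, below the 2516 CPM of the quartile of inhibitory neurons with the fewest (median 8843). Other pairs went the other way. The excitatory quartile with the fewest UMIs at P21 (median 11432) had 1963 CPM. At P8 the deepest astrocyte quartile (median 7099) had 2590 CPM, against 2515 CPM in the shallowest inhibitory quartile (median 6149.5). At E19 it had 3738 CPM (median 6254), against 3534 CPM in the shallowest excitatory quartile (median 5120). Astrocytes also held more ribosomal protein RNA, 6334 against 3913 CPM in neurons at E19 and 1076 against 737 CPM at P21. The part of depth and of such RNA in the difference was not tested. In the oligodendrocyte lineage 28 of 72 were higher in all 4 (24.8% of 9717 genes), with a median ratio of 0.55 at E19 and -0.02 at P21.

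Neuron subtypes of a library differed by ratios of highest to lowest of 1.17 to 1.41. At E19 the summed level ran from 2647 CPM in EN1 to 3166 in EN2 among 5 excitatory subtypes with at least 50 nuclei, and from 2964 in IN1 to 4184 in IN3 among 7 inhibitory ones. At P21 it ran from 1668 in EN5 to 1953 in EN4 and from 1980 in IN3 to 2545 in IN7. IN3 was thus the highest inhibitory subtype at E19 and P4 and the lowest at P21. IN4 stood next to IN3 each time, at 4090, 3126 and 2039 CPM, with intervals that overlapped those of IN3. IN3 and IN4 were also the shallowest of the inhibitory subtypes shown at E19 (medians 4465 and 4708 UMIs) and P4 (4742 and 5214). Most neighbours in these orders had overlapping intervals: 2 of 4 excitatory and 5 of 6 inhibitory pairs at E19, and 4 of 4 and 5 of 6 at P21. At E19 the order ran with shallower depth (Spearman's rho of level with median UMIs -0.90 over 5 excitatory and -0.82 over 7 inhibitory subtypes) and with the ribosomal protein level (1.00 and 0.96), and at P21 it did not run with shallower depth (0.70 and 0.21). Their part in the order was not tested.

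All 9 neuron subtypes with at least 50 nuclei at both E19 and P21 had a lower summed level at P21, and in 9 of 9 the short members were lower. The members of 10 kb or more were higher in 3 and lower in 6. Cox8a, Ndufa4 and Atp5e were lower at P21 in 9 of 9 subtypes, and Ndufv2 and Ndufs1 were higher in 9 of 9. These genes were picked for their large ratios in the neuron classes, which hold the same nuclei, so the counts add no separate evidence. Cox6b2 was lower in 7 and higher in 2 subtypes, and Cox7b2 higher in 7 and lower in 2, both at low levels. Across these subtypes Ndufv2 ran from 26.6 to 46.3 CPM at E19 and from 52.3 to 77.4 CPM at P21, 2 ranges that did not overlap. Subtypes of a library share its depth and handling and are not replicates.

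**Figure D5:**
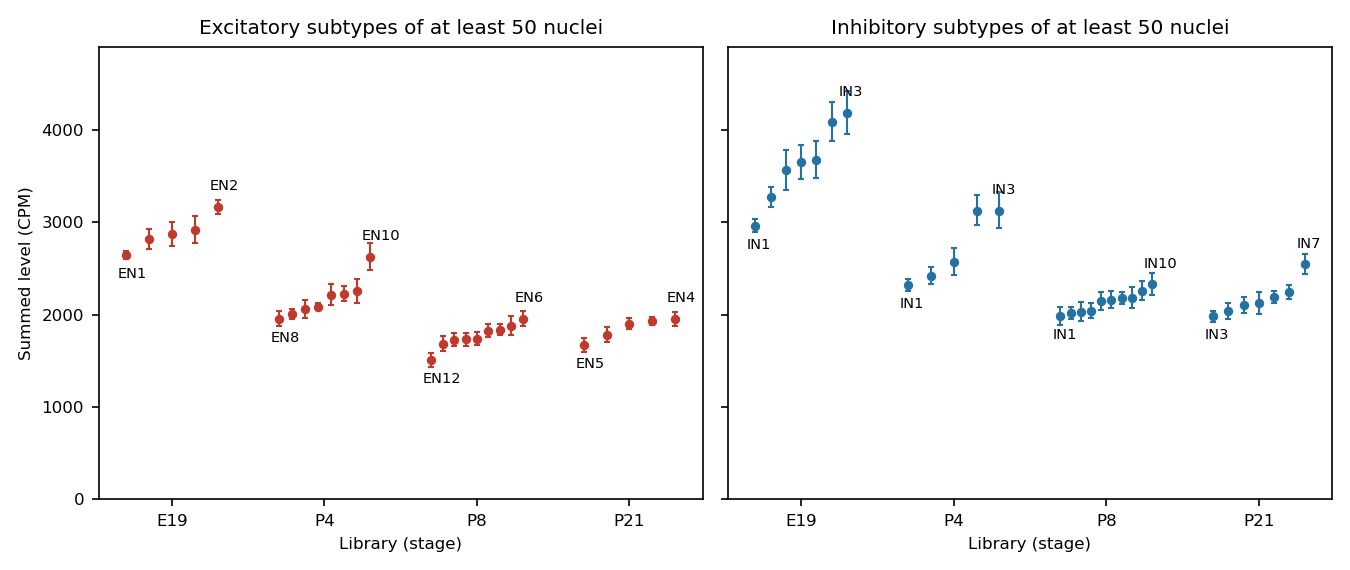
Summed level of the 83 genes in CPM (y axis) for each neuron subtype with at least 50 nuclei, ordered by level within each library (x axis), with exact Poisson intervals for counting error and the highest and lowest subtype named. The 9 subtypes present at both ends lay at 2647 to 4184 CPM at E19 and at 1902 to 2248 CPM at P21. IN3 was the highest inhibitory subtype at E19 and the lowest at P21, with IN4 next to it and overlapping intervals in both libraries.

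Genes that assemble, feed or regulate the chain differed from list to list. Of 44 assembly factor genes, 22 reached the limit for comparison in excitatory neurons. Of these 22 assembly factor genes compared in excitatory neurons, 1 was lower and 4 were higher from E19 to P21 (the background for these lists is the 23.8% and 14.2% given above), with a median of 0.25. Only 5 of these 22 spanned under 10 kb, against 15 of the 22 genes below the limit, of which 17 had ratios below 0, so the median describes mostly long genes. In inhibitory neurons 3 were lower (24.4% of all genes) and 7 higher (15.8%) of 27 compared, also with a median of 0.25. Ndufaf5, a complex I assembly factor, had 26.2, 32.5, 35.8 and 50.9 CPM in excitatory neurons and Atpaf1, which assembles the ATP synthase head, 30.3, 31.3, 40.0 and 55.8. Coa3, a complex IV assembly factor spanning 1.1 kb, was the lower one, at 20.8, 9.67, 6.60 and 3.15 CPM.

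Of 13 regulators of mitochondrial biogenesis compared, 0 were lower and 5 higher in excitatory neurons. In inhibitory neurons 0 were lower and 3 higher, against 24.4% and 15.8% of all genes. Of these 13 genes 0 spanned under 10 kb and the median span was 28.0 kb, so the counts describe longer genes only. Ppargc1b, a coactivator of mitochondrial gene expression, had 27.7, 50.8, 68.0 and 94.3 CPM in excitatory and 22.3, 44.8, 49.6 and 104 CPM in inhibitory neurons. Of 16 genes of pyruvate oxidation and the citric acid cycle, 2 were lower and 2 higher in excitatory neurons, among them Ogdh (88.0 to 158 CPM) and Mdh2 (55.5 to 30.3 CPM). Of 15 glycolysis genes 9 were lower and 2 higher, with a median of -0.74 beside -0.66 for the subunits: Ldha, which interconverts pyruvate and lactate, had 50.1, 29.5, 16.2 and 10.3 CPM and Pfkp, the platelet-type phosphofructokinase, 732, 1020, 873 and 189 CPM, while Pfkm, its muscle-type counterpart, had 27, 31.6, 30.7 and 46.6 CPM and Eno2, the neuronal enolase, 48.1, 74.5, 89.9 and 96.8 CPM. Among 15 transport genes 6 were lower and 4 higher, from Slc25a4, the main adenine nucleotide carrier (139 to 44.4 CPM), to Mpc1, part of the pyruvate carrier (73.4 to 135 CPM), and Slc25a13, an aspartate-glutamate carrier (19.2 to 45.1 CPM).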

How the data were processed

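Single-nucleus RNA was measured in 4 libraries, 1 per stage, with 10x Genomics 3′ chemistry and Cell Ranger 3.0.2 on an mm10 reference of unspliced transcripts, per the labels' protocols and the submitters' processing notes. The deposited matrix held raw UMI counts per gene and nucleus. The table of nuclei deposited by the authors gave stage, class, subtype, UMI totals and the percent of mitochondrial and ribosomal protein UMIs; 4 further columns were not used. The filters on nuclei, the treatment of doublets and the naming of classes are not given in the sources used here, and no further filter was applied. The UMI totals recomputed from the matrix equalled the deposited ones in 9724 nuclei.

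UMIs were summed by class and library and scaled to CPM (Python 3.11.15, numpy 2.4.6, scipy 1.17.1). Genes with a mean of at least 10 CPM over libraries with at least 50 nuclei of the class were compared. Folds carry exact conditional intervals at the 95% level. A ratio of 0.5 in log2 was used as the limit for counting a gene; with 1 library per stage no test was made and no p-value computed. Gene spans came from GENCODE M21 (GRCm38), in which 83 of 83 members were found; 7 overlapped a gene of the matrix on the same strand and 25 on the opposite strand, and the strand setting of the counting is not known. Promoters were matched by symbol or synonym for 68 members. TMM factors came from edgeR. The functions were tested on simulated data.

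The members and lists were chosen with earlier results of these data known. The genes named were the 5 largest ratios in each direction per neuron class, the 3 most abundant members, 10 core subunits, Ndufa4, the tissue isoforms, the 3 largest in each direction per glial class and between neuron classes, and the 2 largest per other list. Other members and subtypes named were chosen after seeing their values. The alternatives tried were other added CPM, filters, scalings, weightings and subsets of nuclei.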

Additional observations from a re-analysis of the deposited data

How the results depend on the processing

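No paired analysis was possible because each stage was 1 library; for the same reason no replicate could be left out. The direction of the members' median held under every alternative run in both neuron classes except one: with a minimum mean of 50 CPM, which left 9 excitatory members, the median was 0.031, with 4 lower and 1 higher. The same filter gave 14 inhibitory members with a median of -0.29, 6 lower and 1 higher. With 20 CPM added the medians were -0.41 and -0.45. Median-of-ratios and TMM scaling gave -0.57 and -0.56 in excitatory neurons and moved the all-gene median from -0.07 to 0.03. With P4 as the starting stage the medians were -0.32 and -0.39, with 17 and 24 lower and, in inhibitory neurons, 4 higher.

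A limit of 1 in log2 left 22 and 23 lower and 0 higher. Apart from P4 as the starting stage, the share of all genes called was not computed for the alternatives of this section. Their counts of members therefore have no background of their own. Higher members numbered 4 in excitatory neurons without a filter, 4 in inhibitory neurons thinned to 2300 UMIs per nucleus, and 1 in each class without members overlapping another gene. The P21 share of the E19 level was 0.629 and 0.626 with nuclei weighted alike and 0.611 and 0.608 with subtypes weighted alike. Among nuclei with above 0.25 to 1% mitochondrial UMIs, chosen after seeing the data, it was 0.697 and 0.725, and inhibitory neurons had a median of -0.57 and 5 higher. In vascular leptomeningeal cells 29 members were lower with 20 CPM added and 30 with median-of-ratios scaling. No neuron lacked mitochondrial UMIs, so that planned subset gave no value. Single genes were followed only for the 5 lowest and 5 highest ratios of each neuron class. Their 160 values under the alternatives all kept their sign, but these genes were picked for large ratios. Of the 160 values, 66 lay outside the counting interval of the main value. The other named genes were not followed in this way. The cause of these movements was not tested.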
